A study of Mus musculus with 45 samples.

Results

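The alpha-defensin genes of Paneth cells were followed across intestinal development, gut region, Lgr5 genotype and the ligand and dose given to organoids. The members were the 9 entries named Defa17, Defa21, Defa22, Defa24, Defa26, Defa29, Defa30, Defa35 and AY761184 in both expression tables, out of 52636 genes in each. They were chosen by name, and another 31 entries whose names start with Defa, pseudogenes among them, were kept only for comparison. All values are CPM, the reads counted on a gene after scaling each library to 1000000 reads. Because near-identical copies can share reads, the summed CPM of the 9 members is given beside the values of single genes.

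Alpha-defensins are small cationic peptides, called cryptdins in the mouse, that Paneth cells store in granules at the base of small-intestinal crypts and release into the lumen, where they kill bacteria. They are made as precursors with a signal peptide and an acidic propeptide, and the mature end is held together by disulphide bonds between cysteines. The matrix metalloproteinase encoded by Mmp7 cleaves the precursors in the mouse, and lysozyme, encoded by Lyz1, is stored in the same granules. Paneth cells lie among the Lgr5-expressing stem cells and depend on Wnt signalling, which Rspondins strengthen by binding receptors of the Lgr family.

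RNA was sequenced from 15 libraries of sorted small-intestinal cells and 30 libraries of organoids. The first sorted set came from the Lgr5-DTReGFP line, whose Lgr5 gene carries a knock-in of EGFP joined to the receptor of diphtheria toxin, so that heterozygotes (HE) keep 1 Lgr5 copy and homozygotes (KO) none, and EGFP+ cells were collected. It held 2 pools of HE embryos at E16.5 (7 and 8 embryos), 2 pools of KO embryos of the same 2 litters (2 and 6 embryos), 2 single HE embryos at E18.5, and the duodenum and ileum of the same 2 HE mice at 2 months, which gave 4 adult libraries. The second sorted set was ileum of mice at 2 months carrying 1 Lgr5-GFP-CreERT2 allele and a Tomato reporter, with (cKO, 3 libraries) or without (HE, 2 libraries) a floxed Lgr5 allele. These mice had received a single injection of 2 mg tamoxifen 48 h before cells positive for EGFP and Tomato were sorted. Both genotypes of the second set therefore lacked 1 functional Lgr5 copy, as did every HE control of the first. Organoids came from E17.5 Lgr5-DTReGFP embryos, 3 wild-type (WT) cultures numbered 5, 10 and 30 and 2 KO cultures numbered 2 and 7, each grown from 1 embryo and studied at passage 4. Each culture was grown with mouse Rspo1, Rspo2 or Rspo3 at 5 or 100 ng/ml, which gave 12 groups of 2 or 3 libraries with no untreated culture among them. The study sorted its cells as intestinal stem cells, with doublets gated out. At E16.5 it excluded an impact of Paneth cells from Lendrum's staining, which marks their granules. Which of the sorted cells held the alpha-defensin RNA was not tested. In bulk samples such as these libraries, fewer Paneth cells and less alpha-defensin RNA per cell cannot be told apart.

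The 9 genes lie within 710 kb of mouse chromosome 8 (GRCm38, GENCODE vM21 annotation), and each has 2 exons, 372 to 508 bases in all. On the plus strand lie Defa21 (chr8:21025545-21026516), Defa35 (chr8:21065038-21065996), Defa30 (chr8:21134642-21135598), Defa22 (chr8:21162277-21163249), Defa26 (chr8:21618183-21618972), Defa17 (chr8:21655780-21656735) and Defa24 (chr8:21734494-21735471). On the minus strand lie Defa29 (chr8:21325887-21327020) and AY761184 (chr8:21702519-21703645). The members fell into 2 kinds by their coding sequence. The 7 genes of the plus strand encode precursors of 93 codons and end in the 6-cysteine pattern of an alpha-defensin. Defa29 and AY761184 encode precursors of 116 codons whose last 58 codons hold 11 cysteine codons, most of them spaced 2 codons apart. The 3' coding ends, without the stop codon, are shown because they carry the mature peptide and separate the members best. They were read from the genome 5' to 3' on the coding strand, and capitals mark the in-frame cysteine codons.
Defa24 (chr8:21735270-21735374, plus strand): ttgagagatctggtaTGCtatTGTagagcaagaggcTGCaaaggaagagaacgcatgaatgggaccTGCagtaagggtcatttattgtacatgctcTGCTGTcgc
Defa30 (chr8:21135396-21135500, plus strand): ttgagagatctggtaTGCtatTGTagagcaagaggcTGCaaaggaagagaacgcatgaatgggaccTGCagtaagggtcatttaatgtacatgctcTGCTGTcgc
Defa17 (chr8:21656534-21656638, plus strand): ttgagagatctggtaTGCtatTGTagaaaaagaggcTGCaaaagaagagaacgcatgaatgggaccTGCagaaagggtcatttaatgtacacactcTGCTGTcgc
Defa26 (chr8:21618775-21618879, plus strand): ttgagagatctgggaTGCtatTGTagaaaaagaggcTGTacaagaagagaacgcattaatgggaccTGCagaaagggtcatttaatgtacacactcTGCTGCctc
Defa35 (chr8:21065801-21065905, plus strand): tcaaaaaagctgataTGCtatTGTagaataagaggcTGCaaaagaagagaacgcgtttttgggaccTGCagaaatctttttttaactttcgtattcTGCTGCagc
Defa21 (chr8:21026316-21026420, plus strand): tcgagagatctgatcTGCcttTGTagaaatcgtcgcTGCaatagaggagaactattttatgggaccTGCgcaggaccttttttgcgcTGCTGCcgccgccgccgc
Defa22 (chr8:21163048-21163152, plus strand): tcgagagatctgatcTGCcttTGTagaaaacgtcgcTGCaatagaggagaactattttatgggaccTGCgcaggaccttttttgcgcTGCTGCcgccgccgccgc
Defa29 (chr8:21326002-21326175, minus strand): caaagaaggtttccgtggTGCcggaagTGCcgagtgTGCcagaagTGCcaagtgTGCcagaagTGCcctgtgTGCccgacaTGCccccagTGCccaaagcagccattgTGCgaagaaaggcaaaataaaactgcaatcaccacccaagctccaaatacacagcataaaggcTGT
AY761184 (chr8:21702631-21702804, minus strand): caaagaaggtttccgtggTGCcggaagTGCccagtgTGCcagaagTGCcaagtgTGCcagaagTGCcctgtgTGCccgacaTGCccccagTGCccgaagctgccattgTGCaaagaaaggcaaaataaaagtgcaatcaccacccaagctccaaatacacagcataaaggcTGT

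Defa24 and Defa30 shared 98.6% of their coding bases, Defa21 and Defa22 shared 99.3%, and Defa29 and AY761184 shared 96.6%. Among the 7 plus-strand genes the identity was 80.3 to 99.3% (median 83.9% over 21 pairs), and between them and Defa29 or AY761184 it was 64.9 to 69.0% (14 pairs). That gap lay in the 3' end, since the first 150 coding bases of the 2 kinds were 91.3 to 95.3% identical. In Defa21 and Defa22 the last pair of cysteine codons comes after 6 codons rather than 9 and is followed by a run of codons starting with cg.

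The likeness sets how far single genes could be told apart by reads. Of the 298 stretches of 100 bases in the spliced transcript of Defa17, 90.6% occurred in another annotated gene, mostly Defa3. For Defa21 and Defa22 the share was 40.4% and 40.3%, each with the other, and for Defa35 it was 23.4%, shared with Defa36, Defa37, Defa34 and Defa5. It was 11.0% for Defa29, 1.1% for Defa26, 0.3% for Defa30 and 0 for Defa24 and AY761184. The CPM of Defa24, Defa30, Defa26 and AY761184 therefore rest on sequence that is nearly or fully their own, whereas those of Defa17, Defa21, Defa22 and Defa35 are less certain. The reads were sequenced in pairs, and a pair can cover more than 1 such stretch. The shares are thus no measure of how uncertain the CPM are. How reads that map to several genes were counted is not given in the sources used here.

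**Figure D1:**
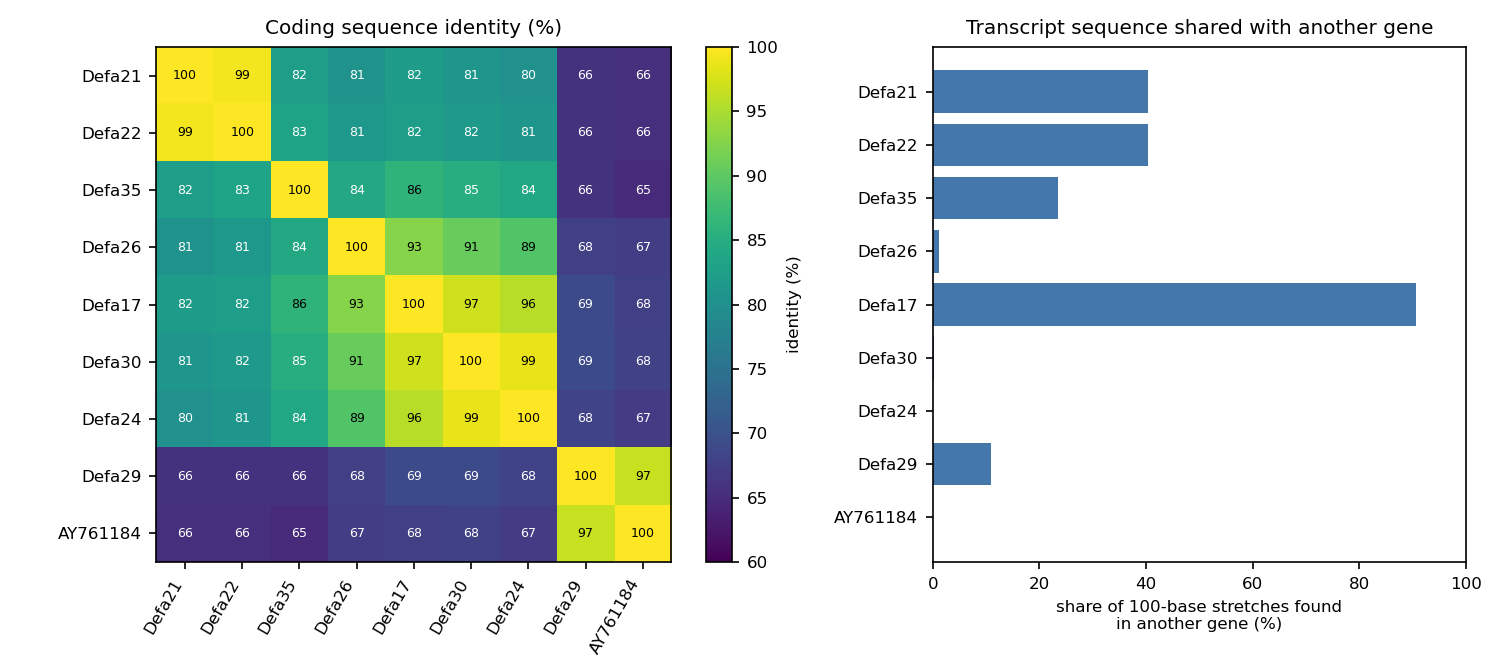
The left panel shows the percent identity of coding sequences between each pair of the 9 members as a coloured grid, and the right panel the percentage of each member's 100-base stretches that occur in another annotated gene. Defa29 and AY761184 form a block of their own against the 7 others, and Defa17 has the highest shared percentage, 90.6%.

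Promoter sequence from RefSeq (GRCm38.p6) was matched for 4 of the 9 members, and the 250 bases before RefSeq's gene start are shown because Rspondins act through Wnt signalling and the members' levels went together across libraries. Capitals mark ATCAAAG, which is CTTTGAT on the other strand, a core motif of the Tcf/Lef factors that carry Wnt signals, and TATAAA. The windows of Defa21 and Defa22 (chr8:21162027-21162276) were identical, and only the first is printed. RefSeq starts Defa30 8 bases after the GENCODE start given above, so that its window ends 8 bases inside the GENCODE gene.
Defa21 (chr8:21025295-21025544, plus strand): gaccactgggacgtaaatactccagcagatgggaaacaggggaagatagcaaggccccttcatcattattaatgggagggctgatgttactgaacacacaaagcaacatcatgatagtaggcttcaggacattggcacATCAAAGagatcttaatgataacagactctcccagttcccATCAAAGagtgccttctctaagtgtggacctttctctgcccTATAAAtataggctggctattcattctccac
Defa35 (chr8:21064788-21065037, plus strand): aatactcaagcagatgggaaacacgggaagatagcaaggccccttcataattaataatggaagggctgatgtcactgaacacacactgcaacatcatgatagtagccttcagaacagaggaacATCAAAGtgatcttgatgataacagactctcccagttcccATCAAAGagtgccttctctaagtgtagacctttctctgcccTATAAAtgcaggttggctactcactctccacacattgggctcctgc
Defa30 (chr8:21134400-21134649, plus strand): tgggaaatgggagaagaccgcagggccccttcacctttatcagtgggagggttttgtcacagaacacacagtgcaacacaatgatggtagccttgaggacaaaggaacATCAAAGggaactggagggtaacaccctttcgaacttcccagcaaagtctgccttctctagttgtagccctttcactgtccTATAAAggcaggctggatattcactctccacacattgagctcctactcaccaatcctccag
Searched on both strands, CTTTGAT was found in 4 of 4 member windows, in 9 of 12 other Defa windows and in 3.21% of all 32851 windows of that length. TATAAA was found in 4 of 4, in 11 of 12 and in 12.37%, respectively. Defa21, Defa22 and Defa35 held the Tcf/Lef letters at 2 places and Defa30 at 1. A match of letters is a description of the sequence, and factor binding was not measured.

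Sequencing depth, estimated from the spacing of low CPM values, was about 1280000 to 9980000 counted reads in the sorted libraries, where 1 read was worth 0.1 to 0.784 CPM. In the organoids it was about 18100000 to 33100000 reads, a rough estimate because 1 read is worth about as much as the step of 0.05 CPM in which values are listed. Lgr5 itself followed the labels at E16.5, with 104.25 and 125.1 CPM in HE pools and 64.75 and 51.65 CPM in KO pools (log2 difference -0.97, limma adjusted p = 0.07946). It was not called in the Cre line, where the HE libraries held 52.8 and 87.55 CPM and the cKO libraries 89.15, 109.35 and 90.65 CPM (0.49, adjusted p = 0.864), nor the organoid genotypes in any of the 6 conditions (limma adjusted p from 0.08739 to 1). The deposited value counts reads over the whole gene, so that it does not check the deletion of exon 16 or how much of the gene is read through behind a knock-in. The defining markers Lyz1 and Mmp7 were read in every group as a check on the Paneth cell label. All 9 members reached 1 CPM in at least 1 sorted library and 8 did so in organoids, where Defa21 stayed at or under 0.30 CPM and was not tested.

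In the adult DTReGFP libraries the order of the levels per kb of exon was led by Defa24, at 10350 ± 3119.8 CPM per kb (SD, n = 4). Defa30 followed at 6135.8 ± 2408, Defa29 at 4375.3 ± 1758.6, Defa17 at 3715.7 ± 1247.2 and AY761184 at 2601 ± 1042.7 CPM per kb. From Defa30 to AY761184 each neighbour lay within 1 SD of the next, while Defa24 stood above Defa30 by more than its SD. The SD is the spread of a gene over libraries and does not measure the order within a library. Defa30 lay above Defa29 in every library, at 5229.4 to 5365.6 against 4921.5 to 5216.2 CPM per kb in duodenum. In ileum they were at 4274.5 and 9673.6 against 1769.8 and 5593.6 CPM per kb. Defa29 and Defa17 changed places between libraries. The rest formed a lower set with Defa35 at 1310.5 ± 750.1, Defa26 at 656.9 ± 292.3, Defa22 at 136.6 ± 109 and Defa21 at 37.71 ± 35.61 CPM per kb. The adult Cre libraries were also led by Defa24, at a mean of 3233.5 CPM per kb, and Defa30, at 1529.6 CPM per kb. The order then differed, with Defa17 at 1273.1, Defa29 at 564.8, Defa35 at 447.3 and AY761184 at 387.7 CPM per kb. Of the CPM of the members and the other Defa entries, the 9 members held 70.1 to 92.5% in the sorted libraries. Genes listed under other names are not in that total.

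The comparison of adult with E18.5 HE cells asked how the family changed between late gestation and maturity. The summed CPM was 125.65 and 122.4 in the 2 E18.5 embryos. It was 12137.4 and 12334.7 in adult duodenum and 7739.95 and 18282.75 in adult ileum. Every adult library therefore lay far above both embryos, and the ratio of means was 102, with single adult to embryo ratios of 61.6 to 149. All 9 members were higher in adults, against a background of 9.36% of 19554 tested genes called higher. The calls used limma on log2(CPM + 1), at an adjusted p under 0.1 and a change over 1.5-fold.

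Defa24, the most abundant cryptdin here, was at 73.6 and 68.35 CPM in E18.5 cells and at 4069.65, 4208.6, 2959.3 and 6109.1 CPM in the adult libraries (log2 difference 5.87 ± 0.25 SE, limma adjusted p = 2.079e-05). No adult library came near the embryonic level. AY761184 was at 1.85 and 2.2 CPM at E18.5 and at 1421.9, 1482.7, 555.85 and 1772.85 CPM in adults (8.64 ± 0.42, limma adjusted p = 3.154e-05). Defa29 was at 5.1 and 8.55 CPM at E18.5 and at 2500.1, 2649.85, 899.05 and 2841.55 CPM in adults (8.05 ± 0.46, limma adjusted p = 7.496e-05). The cysteine-rich pair thus had larger log2 differences than Defa24, a contrast between genes that was not tested. Their share of the family sum was 4.059 to 6.985% for Defa29 and 1.472 to 1.797% for AY761184 at E18.5, against 11.62 to 21.48% and 7.182 to 12.02% in these adults. In the adult Cre libraries the shares were 6.23 to 10.1% and 4.424 to 7.997%, and that of Defa29 overlapped the E18.5 range.

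Defa30 (6.61 ± 0.29), Defa17 (6.06 ± 0.26) and Defa26 (7.11 ± 0.38) were also higher in adults, with limma adjusted p between 2.127e-05 and 5.418e-05. Defa35 was listed at 0.5 and 0 CPM in the embryos and at 405.1, 330.65, 383.6 and 966.9 CPM in adults. Defa22 was at 0 and 0.25 CPM in the embryos and at 31.6, 28.3, 44.05 and 125 CPM in adults. Defa21 was at 0 and 0.25 CPM against 7.35, 7.45, 10.25 and 38 CPM. For these 3 genes the fitted differences (8.59, 5.43 and 3.57) were set by the added pseudocount and are no bound on the change. Their embryonic values amount to about 2 reads at most. The 4 adult libraries came from 2 mice, so that p-values over libraries are too small. With the 2 regions of a mouse averaged, or with either region alone, the count was again 9, and it was 8, without Defa21, when either embryo was left out.

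Other markers moved with the same contrast. Lyz1 went from 16.65 and 9.9 CPM to between 5456.15 and 13187.3 CPM (9.25, limma adjusted p = 1.814e-05), and Mmp7 from 0.95 and 3.3 CPM to between 166.6 and 1069.2 CPM (6.74, adjusted p = 0.001148). Of the 12 Paneth cell products other than defensins, Lyz1 and Mmp7 among them, 10 were higher in adults. So were 17 of the 19 other Defa entries tested, pseudogenes among them. The summed CPM of 8 mesenchymal markers was 78.15 to 82.4 at E18.5 and 3.15 to 6.8 in adults. Tuft cell markers summed to 2.65 to 5.1 CPM at E18.5 and to 208.5 to 3009.8 CPM in adults, with 5 of 5 higher and a median log2 difference of 6.54, close to the 6.61 of the members. Goblet cell markers summed to 352.8 to 495 CPM at E18.5 and to 1366.8 to 7448.2 CPM in adults, and enterocyte markers to 2371.9 to 2879.5 and 294.5 to 1056.4 CPM (6 of 8 lower, 1 higher). The sum of 9 immune markers was 15.95 to 20.45 against 1493.4 to 3146.1 CPM, nearly all of it Lyz2 (1473.5 to 3111.7 CPM in adults), while the T cell gene Cd3e was at or under 2.05 CPM and 2 of the 9, Trem1 and S100a8, were at 0 in the adults. The part of cell composition in the difference was not tested.

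**Figure D2:**
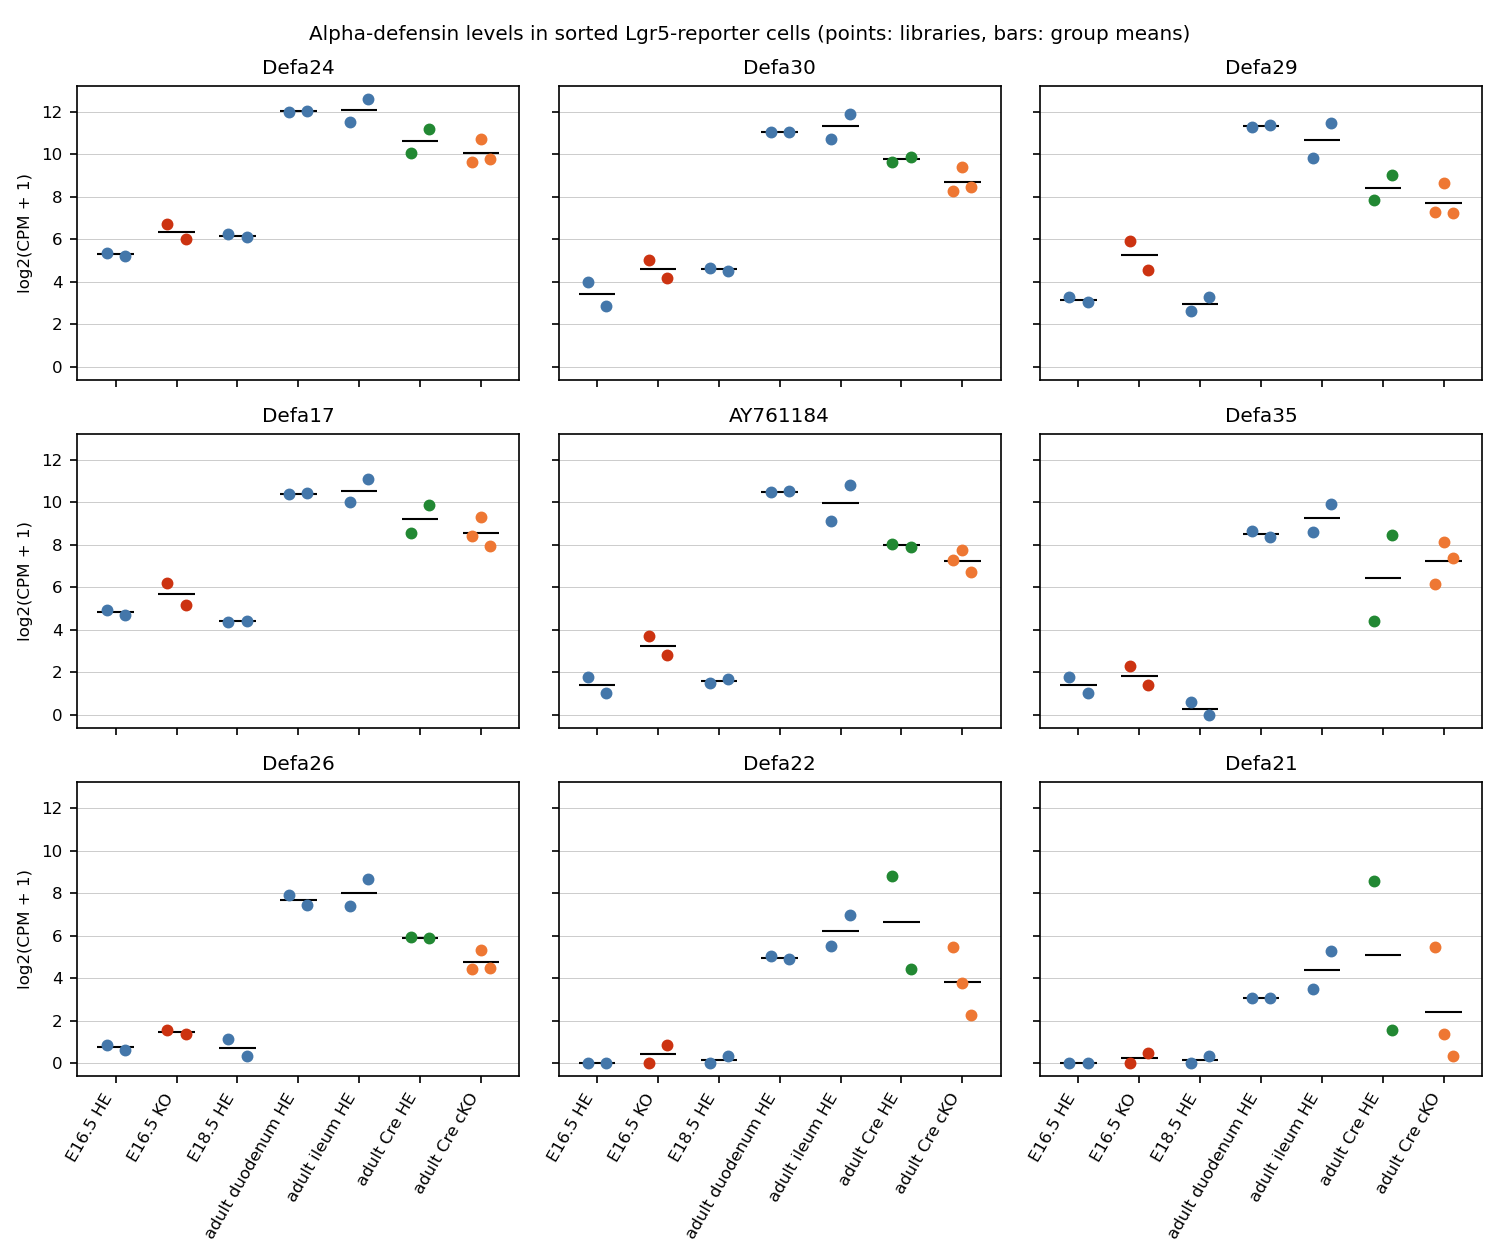
Each panel plots 1 member as log2(CPM + 1) on the y axis over the 7 sorted groups on the x axis, with points for libraries and bars for group means. All 9 genes sit far higher in the adult duodenum and ileum HE groups than in the embryos. In the Cre groups Defa21 reaches down to the embryonic level, at 0.25 CPM in cKO 3. Defa21 and Defa22 have 1 library labelled Cre HE above the rest.

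Between E16.5 and E18.5 the members did not move as a group. The sum was 98.15 and 76.95 CPM in HE pools at E16.5 and 125.65 and 122.4 CPM in the E18.5 embryos, a ratio of means of 1.42 (1.25 to 1.63). Of the 6 members tested, 2 were higher at E18.5 and 1 lower, against backgrounds of 30.3% of genes called higher and 19.4% called lower. Both counts are near the background shares, and the median gene itself moved by 0.23 on the log2 scale.

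Defa24 was at 39.2 and 36.35 CPM at E16.5 and at 73.6 and 68.35 CPM at E18.5 (0.89 ± 0.13, limma adjusted p = 0.003242). Defa30 was at 14.9 and 6.1 CPM and then at 23.55 and 21.95 CPM (1.16 ± 0.39, limma adjusted p = 0.04907). Defa35 was lower at E18.5, at 2.4 and 1.05 CPM against 0.5 and 0 CPM (-1.11 ± 0.40, limma adjusted p = 0.05946). For the other members tested, Defa17 was at 29.8 and 24.75 CPM against 19.85 and 20.6 CPM (-0.41, limma adjusted p = 0.118), and Defa29 and AY761184 differed by -0.21 and 0.19 (adjusted p = 0.6381 and 0.7003). The share of Defa24 in the family sum accordingly was 39.94 to 47.24% at E16.5 and 55.84 to 58.58% at E18.5. No member was called when either E18.5 embryo was left out, a fit in which no gene of the table was called, and Defa30 lost its call without HE pool 2 and Defa35 without HE pool 1. Mesenchymal markers summed to 815.4 to 1780.1 CPM in the E16.5 HE pools and to 78.15 to 82.4 CPM at E18.5 (8 of 8 lower), and their part in these differences was not tested.

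Loss of Lgr5 at E16.5 was compared between pools of the same 2 litters. The summed CPM was 98.15 in HE and 285.45 in KO embryos of the first litter, and 76.95 in HE and 147.05 in KO embryos of the second. The KO pool was the higher in both litters, by 2.91-fold and 1.91-fold, and the ratio of means was 2.47. All 7 members tested had a positive log2 difference (median 1.08), but 1 was called higher, against a background of 0.0868% of 17276 genes.

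That gene was Defa29, with 8.65 and 7.1 CPM in HE pools and 59.75 and 22.25 CPM in KO pools, or 11 and 14 reads against 156 and 56 (2.09 ± 0.41, limma adjusted p = 0.08958). Both KO pools lay above both HE pools. Its cysteine-rich relative AY761184 stood at 2.4 and 1.05 CPM in HE pools against 11.9 and 6 CPM in KO pools (1.85 ± 0.50, limma adjusted p = 0.1661), which rests on 3 and 2 reads against 31 and 15. Defa24 was at 39.2 and 36.35 CPM against 104.2 and 62.75 CPM (1.08 ± 0.23, adjusted p = 0.1041), Defa30 at 14.9 and 6.1 against 31.8 and 17.1 CPM (1.2 ± 0.42, adjusted p = 0.265), and Defa17 at 29.8 and 24.75 against 72 and 34.55 CPM (0.86 ± 0.30, limma adjusted p = 0.2701). For these 5 genes the HE and KO values did not overlap, as for 27.4% of all genes tested, which had both KO pools above both HE pools. Defa26 (0.73, adjusted p = 0.5479) rested on 1 to 5 reads a library, and Defa35 (0.43, limma adjusted p = 0.7676) overlapped between the genotypes. Defa21 and Defa22 were listed at 0 in all but 1 KO pool. The share of Defa29 in the family sum was 8.813 to 9.227% in HE and 15.13 to 20.93% in KO pools.

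With the litter as a block, 5 members were higher in KO pools against a background of 1.56%: Defa29 (limma adjusted p = 2.134e-08), Defa24 (1.117e-05), Defa17 (0.01009), Defa30 (0.01814) and AY761184 (0.02228). With 4 pools and the litter in the model, these p-values rest mostly on the spread estimated over all genes. The deviations of pools of 1 litter were not correlated (-0.032), so that these p-values are no measure of strong evidence. Tests on the recovered reads called Defa24 and Defa29 with edgeR (adjusted p = 0.05876 and 0.04204, background 0.442%) and Defa29 alone with DESeq2 (adjusted p = 0.01359, background 0.0641%). The call of Defa29 in the unblocked fit was lost when any 1 of the 4 pools was left out. Lyz1 was at 48.3 and 27 CPM in KO pools, above both HE pools (1.6, limma adjusted p = 0.1248), and none of the 10 Paneth products tested passed. Markers of other cells also differed between the pools. Mesenchymal markers summed to 815.4 to 1780.1 CPM in HE and 181.3 to 495.6 CPM in KO pools, enterocyte markers to 1321.8 to 1842.8 and 783.5 to 846.9 CPM (4 of 8 lower), and immune markers to 52.7 to 109.1 and 13.5 to 26.7 CPM, and their part in the difference was not tested.

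Duodenum and ileum of the same 2 adult HE mice did not separate the family. The sums were 12137.4 CPM in duodenum and 7739.95 CPM in ileum of mouse 1, and 12334.7 and 18282.75 CPM in mouse 2. The ileum was thus the lower region in 1 mouse and the higher in the other, and the 2 ileal values enclosed both duodenal values. None of the 9 members was called, against a background of 6.88% of genes called in either direction, and 2 of them, Defa21 and Defa22, had an unadjusted p under 0.05, as did 16.3% of all genes. For Defa24 the difference was 0.04, with an interval of -0.78 to 0.86 on the log2 scale (limma adjusted p = 0.9752).

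Defa22 was at 31.6 and 28.3 CPM in duodenum and 44.05 and 125 CPM in ileum (1.29 ± 0.42, limma adjusted p = 0.1813). Defa21 was at 7.35 and 7.45 against 10.25 and 38 CPM (1.32 ± 0.52, limma adjusted p = 0.2667). In both genes each ileal value was the higher of its mouse, and the ileum of mouse 2 was well above the other 3 libraries. With the mouse as a block these 2 were called higher in ileum (limma adjusted p = 0.04195 and 0.07082, background 3.97%). That fit of 2 mice likewise rests mostly on the spread estimated over all genes. Defa29 was at 2500.1 and 2649.85 CPM in duodenum and 899.05 and 2841.55 CPM in ileum (-0.69, limma adjusted p = 0.5667), and AY761184 at 1421.9 and 1482.7 against 555.85 and 1772.85 CPM (-0.55, adjusted p = 0.6629). Defa29 made up 20.6 to 21.48% of the family sum in duodenum and 11.62 to 15.54% in ileum. Calls depended on which ileum was kept: without ileum 1, Defa21, Defa22 and Defa35 were higher in ileum, and without ileum 2, Defa29 and AY761184 were lower. Mmp7 was at 210.65 and 1069.2 CPM in the 2 ileal libraries and 166.6 and 237.95 CPM in the duodenal ones.

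In the Cre line, the comparison asked what deletion of the remaining Lgr5 copy did in adult ileum 48 h later. The libraries labelled HE held summed values of 3637.75 and 5416.3 CPM and those labelled cKO 1924.4, 3933.85 and 1888.1 CPM. The range of the cKO libraries reached above the lower HE library. None of the 9 members was called, against a background of 0.0504% in either direction, although 8 had a negative log2 difference. AY761184, Defa26 and Defa30 had an unadjusted p under 0.05, as did 4.54% of all genes. All 5 sums lay below those of the adult DTReGFP libraries, but the 2 sets differ in line, tamoxifen and sort gate, which cannot be told apart.

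Defa24 was at 1066.45 and 2355.55 CPM in the libraries labelled HE and at 793.4, 1697.4 and 861.45 CPM in those labelled cKO (-0.59, interval -1.56 to 0.37). Defa30 was at 797.1 and 924.9 against 308.3, 669.35 and 344.25 CPM (-1.05, limma adjusted p = 0.864), and AY761184 at 266.15 and 239.6 against 153.9, 212.35 and 103.1 CPM (-0.75, interval -1.39 to -0.11). For both genes every cKO value was below every HE value, as for 4% of all genes tested, and neither passed the adjustment. Without the library labelled cKO 2, Defa26 and Defa30 were called lower.

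A few members went apart from the others within this set. Defa21 was at 383 CPM in the library labelled HE 1, at 43.35 CPM in cKO 1, and at 1.95, 1.6 and 0.25 CPM in HE 2, cKO 2 and cKO 3. Defa22 reached 446.5 CPM in HE 1 and 43.25 CPM in cKO 1, against 20.75, 12.45 and 3.75 CPM in HE 2, cKO 2 and cKO 3. Defa35 went the other way, at 20.1 CPM in HE 1 and at 356.6, 69.95, 279.85 and 163.6 CPM in HE 2, cKO 1, cKO 2 and cKO 3. Defa21 and Defa22 together took 22.8% of the family sum in HE 1 and 4.5% in cKO 1, and at most 0.892% in all other sorted libraries. The same split was seen in 4 other entries picked after their values were seen, Defa2, Defa20, Defa32 and Defa33, which were at 24.85 to 61.3 CPM in HE 1 and at or under 0.35 CPM in HE 2, cKO 2 and cKO 3. The remaining 7 members summed to 2808.25 and 5393.6 CPM in the libraries labelled HE and to 1837.8, 3919.8 and 1884.1 CPM in those labelled cKO. What sets these libraries apart was not tested.

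**Figure D3:**
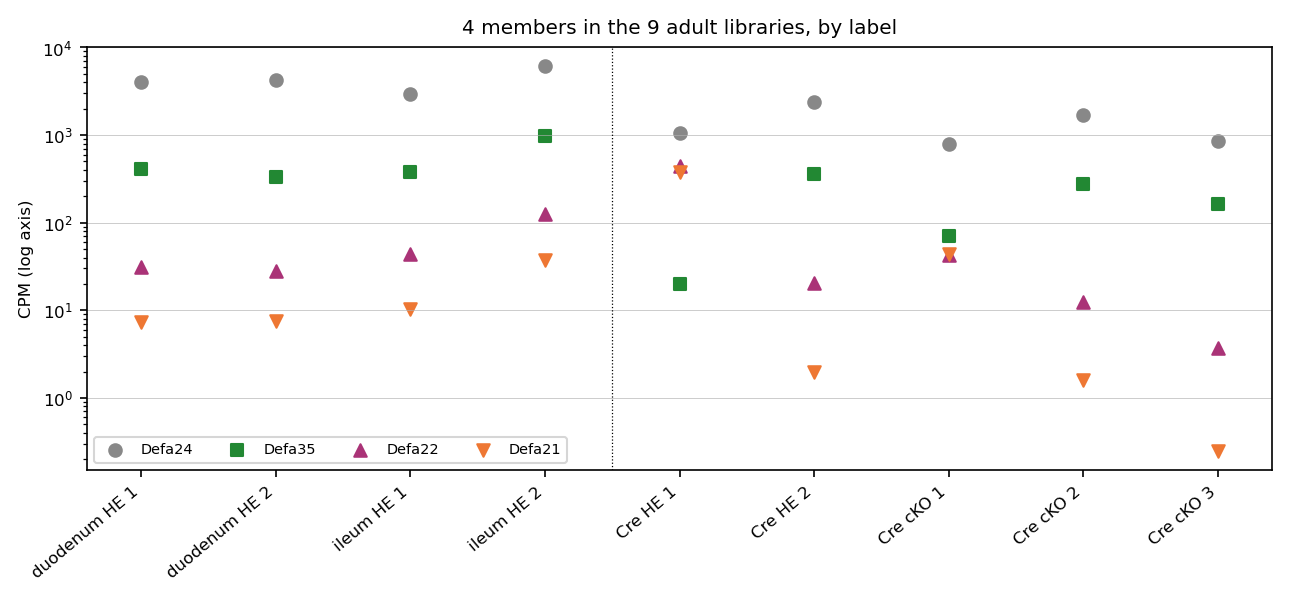
CPM of Defa24, Defa35, Defa22 and Defa21 (y axis, log scale) is plotted for the 9 adult libraries (x axis), 1 point each. Defa24 stays between 793.4 and 6109.1 CPM, whereas Defa21 and Defa22 reach 383 and 446.5 CPM in the library labelled Cre HE 1, where Defa35 is at its lowest, 20.1 CPM.

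The genotypes in the sample labels were in doubt for this set, because a supplementary dataset of the study gives the other genotype for the libraries labelled HE 1 and cKO 2. With those genotypes, 3 members were lower in cKO, against a background of 1.38% called lower: Defa17 (-1.29, limma adjusted p = 0.03109), Defa24 (-1.15, 0.02072) and Defa29 (-1.39, 0.01819). Defa21 and Defa22 then turned to positive differences (3.32 and 1.41, limma adjusted p = 0.3112 and 0.5904), as the library that carries them changed sides. With the labels they were at -2.68 and -2.80. Defa35 turned from 0.77 to -2.34 (limma adjusted p = 0.106). The other 6 members were at negative differences with either set of genotypes, AY761184, Defa26 and Defa30 at -0.48, -0.68 and -0.84 with the second set, and which of them were called depended on the genotypes used.

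Organoids held far less alpha-defensin RNA by CPM than adult sorted cells, but the tables were normalised separately and no test was made across them. The 9 members held 90.8 to 96.6% of the CPM of the members and the other Defa entries in organoids. Per kb of exon, WT organoids at 100 ng/ml were led by Defa24 at 512 ± 206.8 CPM per kb (SD over 9 libraries of 3 cultures), then Defa30 at 177.6 ± 96.12 and Defa17 at 66.15 ± 36.64. Defa35 was at 43.48 ± 30.44 CPM per kb, Defa29 at 33.17 ± 21.21, AY761184 at 9.62 ± 6.133, Defa26 at 7.049 ± 5.134 and Defa22 at 2.798 ± 2.113. Defa17, Defa35 and Defa29 lay within 1 SD of their neighbours, as did AY761184, Defa26 and Defa22, and the steps between these sets and above them were larger. Here too the SD is a spread over libraries and does not measure the order within a library. Defa24 alone made up 52.01 to 82.51% of the family sum over the 30 libraries. It made up 33.41 to 38.23% in the adult DTReGFP libraries, 29.32 to 45.63% in the adult Cre libraries and 55.84 to 58.58% at E18.5. Defa29, the third gene of the adult DTReGFP order, gave 1.098 to 9.367% of the sum in organoids. In the adult Cre libraries it gave 6.23 to 10.1%, which overlaps the organoid range.

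The dose comparison asked how far each Rspondin raised the family from 5 to 100 ng/ml. In WT cultures 10, 5 and 30 the sum went from 176.05, 53.3 and 116.25 CPM to 498.8, 277.25 and 361.55 CPM with Rspo1. With Rspo2 it went from 152.75, 140.7 and 132.05 CPM to 632.05, 359.35 and 480.45 CPM, and with Rspo3 from 49.65, 31.6 and 63.6 CPM to 189.8, 155.35 and 234.3 CPM. Every WT culture was higher at the higher dose of every ligand, by 2.554-fold to 5.202-fold.

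In WT cultures all 8 members tested were higher at 100 ng/ml with Rspo1, against a background of 40.9% of genes called higher, and all 8 with Rspo2, against 24.3%. With Rspo3 it was 6 of 8, against 37.8%, and among these 6 Defa26 and Defa22 stayed under 1 CPM at both doses. A call here was an adjusted p under 0.05 in 1 limma fit of all 12 groups. These backgrounds are large and depend on the scaling. With TMM scaling 23.4, 14.9 and 25.1% of genes were called higher with Rspo1, Rspo2 and Rspo3, and 7, 8 and 6 members, while 23.1, 15.4 and 23.2% of genes were called lower, against 12.5, 9.12 and 13.7% without it.

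Defa35 had the largest or second largest differences, from 0.55, 1.05 and 0.95 CPM in cultures 5, 10 and 30 at 5 ng/ml Rspo1 to 17, 21.9 and 10.6 CPM at 100 ng/ml (3.20 ± 0.27, limma adjusted p = 3.921e-08). With Rspo2 it went from 5, 3.7 and 1.8 CPM to 24.35, 43.05 and 20.75 CPM (2.76, limma adjusted p = 5.145e-07), and with Rspo3 from 0.35, 0.35 and 0.65 to 5.8, 7.2 and 5.1 CPM (2.27, limma adjusted p = 4.289e-07). In all 3 ligands the dose groups did not overlap, which was so for 41.2, 34.2 and 45.9% of all genes tested with Rspo1, Rspo2 and Rspo3. Its share of the family sum was 0.5964 to 3.554% at 5 ng/ml and 2.177 to 6.811% at 100 ng/ml in WT cultures.

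Defa30 went from 6.75, 15.4 and 10.65 CPM to 67.85, 89.9 and 56.8 CPM with Rspo1 (2.64 ± 0.27, limma adjusted p = 2.303e-07), and its differences with Rspo2 and Rspo3 were 2.33 and 2.52. Defa24 went from 38, 132.05 and 92.55 CPM to 144.2, 306.6 and 251.4 CPM with Rspo1 (1.51 ± 0.36, limma adjusted p = 0.001349), with a gain in each culture. Its differences were 1.36 with Rspo2 (adjusted p = 0.006598) and 1.82 with Rspo3 (limma adjusted p = 0.0002136). Defa24 thus made up 64.07 to 82.51% of the sum at 5 ng/ml and 52.01 to 76.72% at 100 ng/ml in WT cultures.

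Defa17 was higher with Rspo1, Rspo2 and Rspo3 by 1.79, 2.21 and 2.02, Defa26 by 1.45, 1.78 and 0.71, and Defa22 by 0.92, 1.37 and 0.48. With Rspo3, Defa26 went from 0.05, 0.15 and 0.15 CPM in cultures 5, 10 and 30 to 0.7, 0.95 and 0.85 CPM. Defa22 went from 0 CPM in each of them to 0.4, 0.5 and 0.3 CPM. Both genes met the filter of 1 CPM only through other groups, and their Rspo3 calls rest on values near the floor. Of the cysteine-rich pair, Defa29 was higher by 1.47 with Rspo1 and 2.40 with Rspo2 (limma adjusted p = 0.03442 and 0.003136), and AY761184 by 1.96 and 1.70 (adjusted p = 0.006577 and 0.02626). With Rspo3 this pair was at 1.17 and 1.3 and missed the threshold (limma adjusted p = 0.08975 and 0.06092). Defa29 was then at 2.15, 3.15 and 2.05 CPM at 5 ng/ml and at 8.1, 8.15 and 4.5 CPM at 100 ng/ml, still with no overlap between the doses.

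KO cultures had the same pattern with Rspo1 and Rspo3 but not with Rspo2. With Rspo1 the sum of cultures 7 and 2 went from 88.6 and 168.35 CPM to 356.9 and 400.15 CPM, and with Rspo3 from 76.85 and 117.55 CPM to 330.3 and 311.9 CPM. With Rspo2 it was already at 437.85 and 485.55 CPM at 5 ng/ml and stood at 288.55 and 374.7 CPM at 100 ng/ml, a ratio of 0.659 and 0.7717. Both KO cultures were thus lower at the higher dose of Rspo2, whereas each of the 3 WT cultures was higher.

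**Figure D4:**
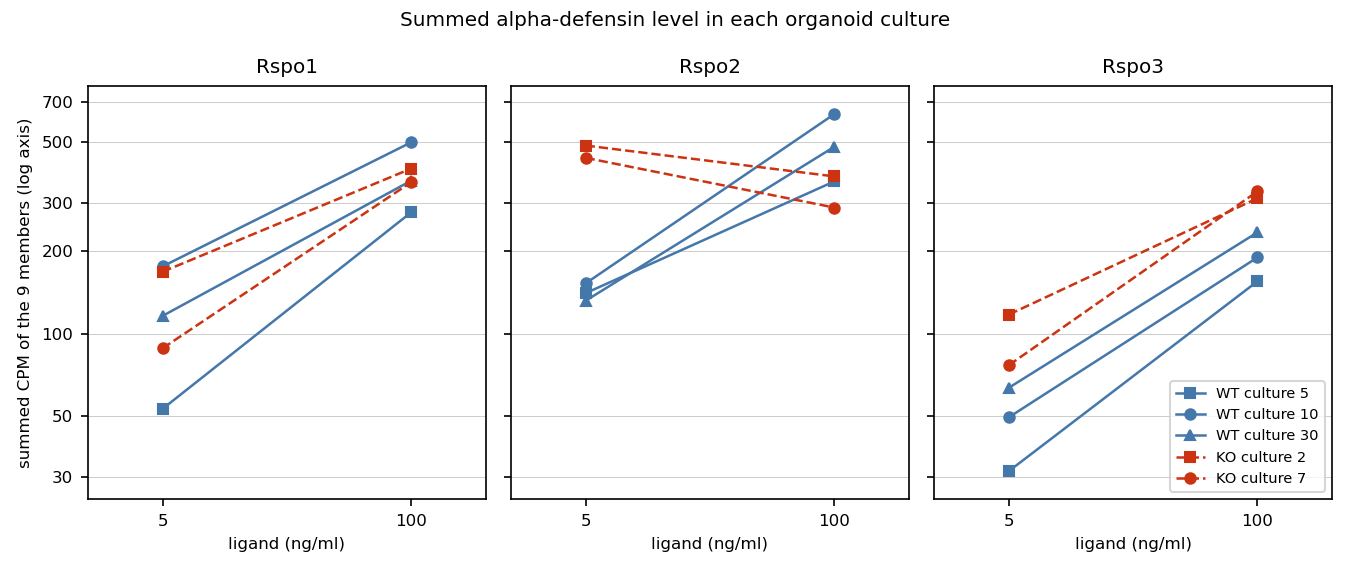
Summed CPM of the 9 members (y axis, log scale) at 5 and 100 ng/ml (x axis) is drawn as 1 line per culture, with 1 panel per Rspondin, WT solid blue and KO dashed red. Lines climb in every panel except for the 2 KO cultures with Rspo2, which start at 437.85 and 485.55 CPM and end lower.

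In KO cultures 6 of 8 members were higher at 100 ng/ml with Rspo1, against a background of 21.9%, and 6 of 8 with Rspo3, against 32.7%. They were Defa35, Defa30, Defa17, Defa26, Defa24 and Defa22 with both ligands, at differences of 0.73 to 2.61. Defa22 was near the floor, at 0.15 and 0.1 CPM in cultures 2 and 7 and then 0.65 and 1.1 CPM with Rspo1. With Rspo3 it was at 0.1 and 0.05 CPM and then at 0.8 CPM in both cultures. The pair that missed was Defa29 (1.68, limma adjusted p = 0.073 with Rspo1) and AY761184 (1.54, adjusted p = 0.1005). With TMM scaling it was 5 of 8 with Rspo1, against 13.5% of genes higher and 13.8% lower, and 6 of 8 with Rspo3, against 22% and 20.3%. With Rspo2 none of the 8 was called, against a background of 0.115% in either direction, and Defa26 had an unadjusted p under 0.05, as did 6.94% of all genes. Differences were between -0.62 and 0.38. Defa24 was at 262.5 and 273.6 CPM in KO cultures 2 and 7 at 5 ng/ml and at 201.9 and 167.05 CPM at 100 ng/ml (-0.54, interval -1.46 to 0.37, limma adjusted p = 0.9004). Defa35 was at 29.35 and 26.1 CPM and then at 20 and 16.1 CPM (-0.60, interval -1.29 to 0.09, adjusted p = 0.7885). With 2 KO cultures, the calls over the 3 ligands went from 12 to 7 when culture 7 was left out.

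**Figure D5:**
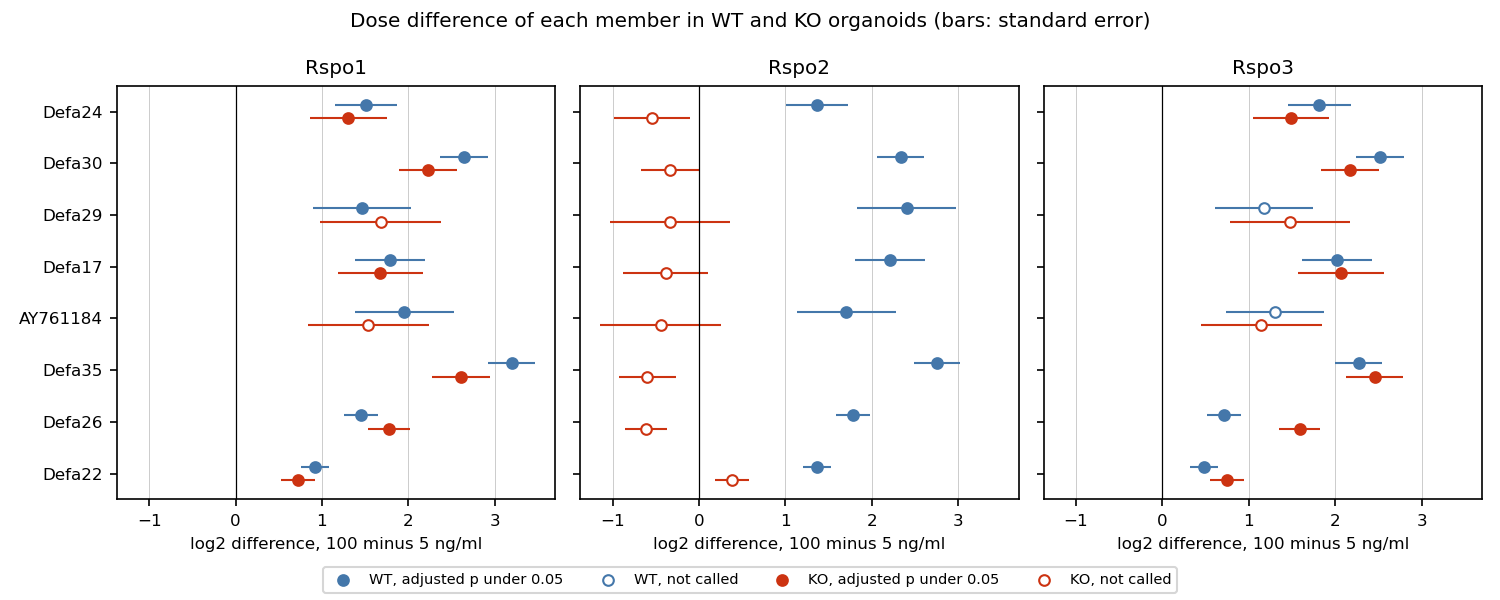
For 8 members the log2 difference between 100 and 5 ng/ml is plotted with its SE, in 1 panel per Rspondin, for WT and KO cultures, and filled symbols mark a limma adjusted p under 0.05. With Rspo2 the KO differences lie between -0.62 and 0.38 and all are open, while the 8 WT differences are filled.

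The difference between the genotypes in the dose response was tested itself. With Rspo1 and with Rspo3 no member and no other gene was called by limma (background 0%), and 0 and 1 member (Defa26) had an unadjusted p under 0.05, against 2.7 and 2.25% of all genes. With Rspo2, 3 of 8 members had a lower dose response in KO than in WT cultures, against a background of 0.413% called lower. They were Defa35 (-3.35 ± 0.43, limma adjusted p = 0.0005172), Defa26 (-2.40 ± 0.31, limma adjusted p = 0.0005172) and Defa30 (-2.67 ± 0.43, limma adjusted p = 0.00709). The others were Defa17 (-2.60, adjusted p = 0.0735), Defa22 (-0.99, 0.08539), Defa24 (-1.91, 0.1473), Defa29 (-2.74, 0.1925) and AY761184 (-2.15, limma adjusted p = 0.3212). With the culture as a block, all 8 were called with Rspo2, at limma adjusted p of 0.0001128 to 0.01565, against a background of 3.2% called lower. Without KO culture 2 the unblocked count was 1, Defa26, and without WT culture 5 it was 5, with Defa17 and Defa24 added. Defa30 lost its call without WT culture 10 or 30. Lgr5 also had a lower dose response (-3.51, limma adjusted p = 0.04342), and Lyz1 was at -2.02 (adjusted p = 0.06724).

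At 5 ng/ml Rspo2, 6 of 8 members were higher in KO than in WT cultures, against a background of 3.18% called higher and 1.36% lower (6 members, 2.25 and 1.85% with TMM scaling). The fit counted libraries as independent, though genotype rested on 3 WT and 2 KO cultures that recur in every condition. In all conditions its p-values between genotypes therefore treat the spread between cultures as better known than it was. Defa35 was at 5, 3.7 and 1.8 CPM in WT cultures 5, 10 and 30 and at 29.35 and 26.1 CPM in KO cultures 2 and 7 (2.74 ± 0.30, limma adjusted p = 1.238e-05). Defa30 was at 26.1, 22.15 and 14.95 CPM against 90.55 and 86.35 CPM (2.05 ± 0.31, limma adjusted p = 0.000664). Both KO cultures lay more than 3 times above the highest WT culture in these genes, close to the level of WT cultures at 100 ng/ml Rspo2, where Defa30 was at 88.75, 142.55 and 98.75 CPM.

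Defa26 stood at 0.75, 0.9 and 0.25 CPM in WT and 5.55 and 4.75 CPM in KO cultures (1.93 ± 0.22, limma adjusted p = 1.902e-05). Defa29 was at 6.75, 3.9 and 1.45 CPM against 42.2 and 18.25 CPM (2.67 ± 0.64, limma adjusted p = 0.021), and Defa17 at 9.65, 8.85 and 3.75 against 42.8 and 25.45 CPM (2.10, limma adjusted p = 0.01192). Defa22 was at 0.3, 0.25 and 0.1 against 0.6 and 1.45 CPM (0.71, limma adjusted p = 0.02738), a low level at which the pseudocount shrinks the difference. None of these overlapped between the genotypes, which was so, with KO above WT, for 26% of all genes tested. Defa24 was at 90.15, 111.3 and 108.95 CPM against 262.5 and 273.6 CPM, also without overlap, and missed the threshold (1.37 ± 0.40, limma adjusted p = 0.05263). AY761184 did overlap, at 1.95, 1.7 and 0.8 against 11.9 and 1.75 CPM (1.29, adjusted p = 0.2371).

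In the other 5 conditions members were called in 1 alone. With Rspo3 at 100 ng/ml, Defa26 (1.19, limma adjusted p = 0.007889) and Defa35 (1.36, limma adjusted p = 0.03114) were higher in KO cultures, against a background of 0.711%. Defa35 was at 5.8, 7.2 and 5.1 CPM in WT and 14.25 and 19.95 CPM in KO cultures there. With Rspo2 at 100 ng/ml all 8 differences were negative (median -0.52), and with Rspo3 at 5 ng/ml all 8 were positive (median 0.88), with none called and 1 and 3 members at an unadjusted p under 0.05 (backgrounds 1.2 and 0.193% in either direction, and 12.3 and 5.4% of all genes at that unadjusted p). With Rspo1 none was called by limma at 100 or 5 ng/ml (backgrounds 0.214 and 0.125%), with 1 member at an unadjusted p under 0.05 at each dose, against 8.82 and 8.36% of all genes. Without WT culture 30, the 8 calls over all conditions fell to 4. Lyz1 at 5 ng/ml Rspo2 was at 1.07 on the log2 scale (limma adjusted p = 0.07399). Immune markers summed to 22.15 to 67.25 CPM and mesenchymal markers to 4 to 15.3 CPM over all 30 organoid libraries.

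Ligands were compared at equal ng/ml, each against the same Rspo1 cultures, so that these comparisons share controls. Equal ng/ml did not mean equal survival, since 5 ng/ml sufficed for all organoids to survive with Rspo2 but not with Rspo1 or Rspo3. In KO cultures at 5 ng/ml, 6 members were higher with Rspo2 than with Rspo1, against a background of 13.6%. They were Defa35 (3.12), Defa30 (2.40), Defa26 (2.10), Defa17 (1.82), Defa24 (1.62) and Defa22 (0.82), the last from 0.15 and 0.1 CPM with Rspo1 to 0.6 and 1.45 CPM with Rspo2. Defa24 there was at 110.55 and 67.95 CPM with Rspo1 and at 262.5 and 273.6 CPM with Rspo2 in cultures 2 and 7. Defa29 and AY761184 were at 1.95 and 1.83 (limma adjusted p = 0.05592 and 0.07313). In WT cultures at 5 ng/ml, Defa35 (1.22, limma adjusted p = 0.003189) and Defa30 (0.92, limma adjusted p = 0.01899) were higher with Rspo2 than with Rspo1, against a background of 16.4%, and both calls were lost without culture 5. With TMM scaling the counts were again 6 in KO and 2 in WT cultures, against 8.57 and 9.78% of genes called higher and 7.87 and 9.7% lower, in place of 4.36 and 6.35% lower.

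Rspo3 gave lower values than Rspo1 in WT cultures. At 5 ng/ml, Defa17 (-1.48, limma adjusted p = 0.01547), Defa24 (-1.07, 0.04509) and Defa30 (-1.06, 0.01098) were lower, against a background of 12.7%. Defa17 was at 4.05, 13.85 and 7.4 CPM with Rspo1 and 1.9, 2.1 and 2.25 CPM with Rspo3. TMM scaling left 2 of these 3 calls, against 8.84% of genes lower and 6.09% higher in place of 12.7 and 3.69%. At 100 ng/ml all 8 differences were negative (median -1.06) and none was called (lowest limma adjusted p = 0.05006, for Defa35), against a background of 0.00523% called lower, although 7 of 8 had an unadjusted p under 0.05, as did 22.3% of all genes tested. With TMM scaling 2 members were called lower there, against 0.162% of genes. With the culture as a block, all 8 were called lower, against a background of 11.4%, and the calls over all ligand comparisons went from 11 to 25. In KO cultures no member was called for Rspo3 against Rspo1 at either dose, nor for Rspo2 against Rspo1 at 100 ng/ml in either genotype, and at an unadjusted p under 0.05 these comparisons held 0, 0 and 1 member in KO and 4 members in WT cultures, against 28.2, 3.73 and 1.29% of all genes in KO and 6.49% in WT cultures. The backgrounds in either direction were 16.2% and 0% for Rspo3 at 5 and 100 ng/ml in KO cultures and, for Rspo2 at 100 ng/ml, 0.0105% in KO and 0.204% in WT cultures.

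The other genes of the system gave the setting. Of the other Defa entries, 8, 9 and 4 of 9 tested were higher at the higher dose of Rspo1, Rspo2 and Rspo3 in WT cultures, and 7, 0 and 8 in KO cultures. Of these 9, 6 were higher in KO than WT cultures at 5 ng/ml Rspo2, and 6 had a lower Rspo2 dose response in KO cultures. Of 12 Wnt target genes, 11, 12 and 9 were higher at the higher dose in WT cultures and 11, 1 and 9 in KO cultures. Of 12 Paneth products apart from alpha-defensins, 6, 7 and 5 were higher and 2, 0 and 2 lower in WT cultures, and 6, 0 and 5 were higher and 0, 0 and 1 lower in KO cultures. Of 8 enterocyte markers, 5, 4 and 5 were lower at the higher dose in WT cultures and 3, 0 and 5 in KO cultures.

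Over the 15 sorted libraries, the genes whose log2(CPM + 1) was most like that of the family sum were Lyz1 (Pearson's r = 0.994), the angiogenin gene Ang4 (0.992), the predicted gene Gm15292 (0.989), and the pancreatic lipase relative Pnliprp2 (0.989) and the colipase gene Clps (0.973), out of 13079 genes. Gm15292 holds 1.1% of the 100-base stretches of Defa26, so that it can share reads with that member. Over the 30 organoid libraries they were Plut (0.957), Lyz1 (0.957), Lgi4 (0.950), Fxyd3 (0.947) and the intelectin gene Itln1 (0.945), out of 12332 genes. The libraries share groups, cultures and depth, and these values are descriptions. Lyz1 was the 1 gene on both lists. Between members, r was 0.49 to 0.99 (median 0.95) in sorted cells and 0.72 to 0.98 (median 0.87) in organoids.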

How the data were processed

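EGFP+ or EGFP+/Tomato+ cells (15 libraries, Ovation SoLo) and organoids (30 libraries, rRNA depletion) were sequenced by the authors. The submitters' processing notes name Trimmomatic 0.36, STAR 2.5.3a, HTSeq 0.9.1 and GRCm38.p4 (mm10). The deposited values are CPM (read counts scaled to 1000000 reads a library), normalised by the authors in 1 table for sorted cells and 1 for organoids, and no test was made across the tables. Genes that reached 1 CPM in a number of libraries equal to the smaller group's size (organoids, 2) were tested with limma 3.58.1 (R 4.3.3) on log2(CPM + 1), with intensity-dependent variance and Benjamini-Hochberg adjustment over all genes tested. These log2 differences understate changes of genes near 0. Sorted cells were called at an adjusted p under 0.1 and over 1.5-fold, organoids at an adjusted p under 0.05 in 1 fit of 12 groups. Whole reads were recovered from the CPM of the 4 E16.5 pools, where edgeR 4.0.16 and DESeq2 1.42.0 were also run.

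Where samples are not stated to be separate animals or cultures, p-values cover only the spread between these samples. Intervals are 95% limits of the fitted difference. The E16.5 pools are paired by litter per the labels (correlation of deviations from group means -0.032), duodenum and ileum by mouse (0.257), and organoid libraries by culture (at least 0.155). The members and the gene lists were chosen with earlier results of these data known. All 9 members are named, and other genes are named only from these lists, as the 5 most correlated with the sum, or where said to be picked after their values were seen. Sequences came from GRCm38 with GENCODE vM21 and from RefSeq. The fits were tested on simulated data.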

Additional observations from a re-analysis of the deposited data

Results flagged for a closer look

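Among the 4 adult Lgr5-DTReGFP libraries, the ileum of mouse 2 stood apart from the other 3 for Defa35, Defa22 and Defa21. Its gap to the next library, as a share of the whole range, was 0.883 for Defa35 (966.9 CPM against 330.65 to 405.1), 0.837 for Defa22 (125 against 28.3 to 44.05 CPM) and 0.905 for Defa21 (38 against 7.35 to 10.25 CPM). For 4 independent values of a normal spread, such a gap arises by chance in about 1 of 20 groups. In all, 10 were looked at, the 9 members and their sum. The 4 libraries came from 2 mice and members can share reads, so that this rate does not hold here. Mmp7 was also highest in that library, at 1069.2 CPM, and the part of either value in the other was not tested.

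The dose response to Rspo2 differed between genotypes by limma for Defa35 (-3.35 on the log2 scale), Defa30 (-2.67) and Defa26 (-2.4), KO minus WT. For the family sum, the ratio of 100 to 5 ng/ml Rspo2 was at most 0.772 in the 2 KO cultures and at least 2.55 in the 3 WT cultures, so that every KO culture moved one way and every WT culture the other. For the sum this difference was not tested.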

How the results depend on the processing

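Over the alternatives that left every library in, 1068 of 1133 values for single members kept their side of the threshold. Of the rest, 17 lost their call and 48 gained one, and no called value turned its direction. Turns of direction between values that were not called were not counted. Of 1107 values with 1 library or culture left out, 1015 kept their side of the threshold, 66 lost their call and 26 gained one. The counts of called members moved by more than 1.5 times as follows. At E16.5 the count of 1 became 0 with TMM scaling, without a filter and with a pseudocount of 0.1, 2 with edgeR, with a mean of at least 10 CPM and in a fit of all 15 sorted libraries, and 5 with the litter as replicate block. For E18.5 against E16.5 it was 1 without a filter. With the replicate block it was 2 for ileum against duodenum, 8 for dose by genotype and 25 for ligands, and it changed no other count by over 1.5 times. In WT dose it was 14 under the filter on a mean of 10 CPM, where fewer members were tested. In the Cre line it was 3 with the genotypes of the supplementary dataset. Summed over the members and the other Defa entries, E18.5 held 159.0 CPM and duodenum 16394.6 CPM. The causes were not tested. Leaving out 1 library at a time gave counts of 8 to 9 for adult against E18.5, 0 to 2 for E18.5 against E16.5, 0 to 0 for E16.5 genotypes, 0 to 3 for gut region, 0 to 2 for the Cre line, 16 to 24 for WT dose, 7 to 12 for KO dose, 1 to 5 for dose by genotype, 4 to 7 for KO against WT and 8 to 13 for ligands. Between E18.5 and adult or E16.5 and within the Cre line the samples share only a number (correlations 0.019 to 0.419 and -0.019), and the block gave 9, 3 and 0 calls. TMM scaling moved the median of all genes in the dose comparisons from 0.04 to 0.28 to between -0.02 and 0.03, and no called member turned its direction. edgeR and DESeq2 were not run outside E16.5, so that calls elsewhere rest on limma alone. At the shallowest depth 1 read was 0.784 CPM, so that absence of Defa21, Defa22 or Defa35 in embryos was not measurable below that level.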
